A study of Rattus norvegicus with 4 samples.

Results

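The 9 genes described here encode core parts of autophagy and the transcription factors and lysosomal channel that regulate it. They are Tfeb, Tfe3, Mcoln1, Sqstm1, Map1lc3b, Gabarapl1, Becn1, Atg5 and Atg7, chosen by name and found on the array through the transcript accession of each probe. Among 16581 genes with a named probe, all 9 were found, with 16 probes in total. RNA came from NR8383, a macrophage line started from the lung lavage of a normal rat, at 20 passages, grown partly attached and partly floating in flasks. The cells were exposed for 4 h to NRCWE055, pristine single-walled carbon nanotubes, at a nanotube surface of 11 cm2 per cm2 of culture. The study design also has unexposed cells, which were not analysed here, so every value is a level in exposed cells and none is a response to the nanotubes. The design describes the 4 samples as biological replicates of this 1 line. In the source names of replicates 2, 3 and 4 the number of the nanotube differs from that in the title, and here the title was taken as right.

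Autophagy encloses damaged organelles, aggregates or ingested material in a double membrane that fuses with lysosomes, and macrophages use part of the same machinery when they take up particles. TFEB and TFE3 are basic helix-loop-helix factors that switch on lysosomal and autophagy genes. They are held in the cytoplasm when the kinase mTORC1 is active at the lysosome and move to the nucleus when it is inactive, so much of their control acts on the proteins and does not show in RNA. MCOLN1 is a lysosomal calcium channel whose calcium release activates calcineurin, the phosphatase that removes phosphate from TFEB.

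TFEB and TFE3 bind the letters CACGTG, and the longer form TCACGTGA is the core of the element found in many lysosomal genes. Both were searched for in RefSeq promoter windows of build GRCr8, 250 bases before to 50 bases after an annotated transcript start, of which 8 of the 9 genes had one. The start used is the RefSeq gene start for Sqstm1, Gabarapl1 and Atg5 and another transcript's start for the other 5 genes. It lies 407 bases from the gene start for Mcoln1, 2964 for Map1lc3b, 29650 for Atg7 and farther for Tfeb. The matches therefore hold for these starts only. The letters TGACNNNGC, the core of the element bound by NRF2, were searched for as well. The stretches that held a match are shown because 2 of the 9 genes encode the factors that read the first element. Capitals mark the matched letters, and each stretch is on the plus strand of GRCr8, 5′ to 3′. The Mcoln1 stretches are chr12:6358198-6358257 and chr12:6358258-6358277, the Atg5 stretch is chr20:49380775-49380834 and the Map1lc3b stretch is chr19:66574535-66574595.
Mcoln1, before the start: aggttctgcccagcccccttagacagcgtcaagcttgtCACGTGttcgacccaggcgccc
Mcoln1, from the start: cgcTCACGTGAccgcggcgc
Atg5, before the start: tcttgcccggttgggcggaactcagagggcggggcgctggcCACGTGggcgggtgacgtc
Map1lc3b, up to the start: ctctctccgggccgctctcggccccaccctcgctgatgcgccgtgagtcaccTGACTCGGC

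CACGTG was found in 2 of the 8 windows, Mcoln1 and Atg5, and in 6.65% of 27457 windows of all genes, searched on both strands. Mcoln1 held it at base -22 and again at base 5 from the start, and the second copy lies inside the only TCACGTGA among the 8 windows, a form held by 0.87% of all windows. TGACNNNGC was found in Map1lc3b alone, beginning at base -8, against 12.17% of all windows. Of the 74 windows of other pathway genes, 9 held CACGTG, 4 held TCACGTGA and 14 held TGACNNNGC. A match describes letters and is not evidence of binding, and the array measured no factor's binding.

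The signal differed between arrays, with a 75th percentile between 1756 and 2861. The scaling made this percentile equal by subtracting a constant from each array, so differences that depend on intensity can remain. Levels below are log2 values relative to that percentile over the probes detected on every array, given for replicates 1, 2, 3 and 4 in this order, then as mean ± SD (n = 4). A level belongs to its probe and is not compared between genes. Detected means well above background by the scanner software's flag, and the lowest detected level was between -7.49 and -6.81. With 4 arrays, the precision of a level is limited by their number. Of the macrophage markers with a probe, 9 of 11 were detected on all arrays, among them Cd68, Spi1 and Pparg, whereas Adgre1 and Marco were not well above background on any. Of 22 markers of lung epithelium, fibroblasts, lymphocytes, neutrophils and endothelium, 5 were detected on all arrays, namely Cd3d, S100a8, Cdh5, Pecam1 and Vwf. Their part in the levels below was not tested.

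All 9 genes were detected on all 4 arrays, where 52.4% of named genes were. Of their 16 probes, 15 were detected on every array, and the other belongs to Atg7. No spot of these probes was saturated. The genes had been chosen with earlier results of these arrays known, so their detection supports nothing further.

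**Figure D1:**
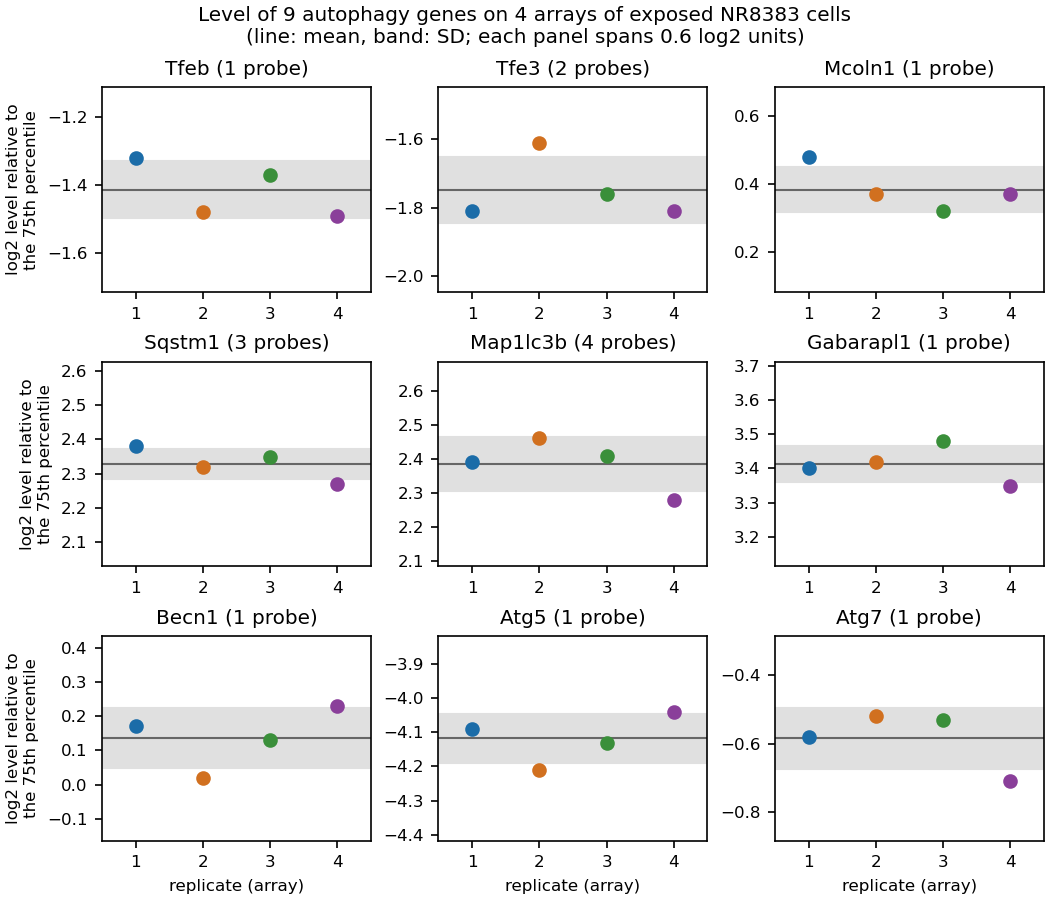
Level of each of the 9 genes on the 4 arrays, as log2 relative to the 75th percentile of the array, with the mean as a line and the SD as a band (n = 4). Each panel has its own centre and the same height, and the widest gene, Becn1, spans 0.21, a 1.16-fold range.

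The transcription factors were measured by 1 probe for Tfeb and a pair for Tfe3. Tfeb, whose protein gives this regulation its name, had signals of 703, 942, 1109 and 668 before scaling and levels of -1.32, -1.48, -1.37 and -1.49 after it, a mean of -1.41 ± 0.08. Replicates 1 and 3 were the higher and replicates 2 and 4 the lower, over a 1.12-fold range. The Tfeb probe stood 5.40 to 6.12 log2 units above the lowest detected level of its array.

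Tfe3, the close relative of Tfeb, was read very differently by its pair of probes. Probe A_64_P148673 gave 1.75, 1.81, 1.73 and 1.79, with an SD of 0.04, so the arrays were close to each other. Probe A_44_P166749, assigned to the same transcript accession, gave -5.37, -5.03, -5.24 and -5.41, with an SD of 0.17 and only 1.44 to 2.37 above the lowest detected level. The probes lay 7.03 log2 units apart on average, and 6.84 to 7.20 apart on single arrays. The mean of both, -1.75 ± 0.10, therefore describes neither, and its highest array, replicate 2 at -1.61, was set mainly by the dim probe. The brighter probe alone put Tfe3 at 1.77.

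The other members of this factor family were also present. Mitf, the melanocyte and osteoclast factor of the family, had levels of -1.22, -0.67, -0.85 and -0.85 and a mean of -0.90 ± 0.23. Replicate 1 was low, which gave a 1.47-fold range. Tfec, a member expressed in macrophages, was at -4.08 ± 0.11. Each is a mean of 2 probes, which lay 1.06 apart for Mitf and 2.21 apart for Tfec.

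Mcoln1, the lysosomal calcium channel, had levels of 0.48, 0.37, 0.32 and 0.37, a mean of 0.38 ± 0.07. Replicate 1 was the highest and the other arrays were close together. Its promoter window holds 2 of the CACGTG matches shown above, and that of Atg5 the other. Its relatives are channels of the same family. Mcoln2 was at -3.64 ± 0.13, and Mcoln3 at -5.54 ± 0.14, with replicate 3 the lowest at -5.76 and the others between -5.49 and -5.45.

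The regulators that act on TFEB were detected for 21 of 22 genes with a probe. Flcn, which encodes folliculin, the activator of the Rag GTPases that bring TFEB to the lysosome, was at 2.78 ± 0.06. Rragc was at 3.86 ± 0.05 and Rragd at -3.05 ± 0.05, both within a 1.08-fold range. The Ragulator gene Lamtor3 had the smallest SD of the pathway, 0.018. Mtor, the kinase gene, had levels of -4.35, -3.73, -4.25 and -4.18, so that replicate 2 was the high array of a 1.53-fold range. Ppp3cb, a catalytic subunit of calcineurin, had levels of -4.17, -4.11, -4.19 and -3.65, with replicate 4 high. Fnip1, a folliculin partner, was the regulator not detected on all arrays. Its best probe was detected on 3.

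Sqstm1 encodes p62, the receptor that ties ubiquitinated cargo to the growing membrane and also binds KEAP1, which links it to NRF2. Its 3 probes, of which A_64_P149735 is assigned to another transcript accession than the others, differed in level by up to 2.39. Probe A_44_P1083737 gave 4.05, 3.94, 3.80 and 3.79, probe A_44_P367556 gave 1.56, 1.57, 1.70 and 1.46, and probe A_64_P149735 gave 1.52, 1.43, 1.54 and 1.56. The arrays did not keep the same order in these probes. Replicate 1 was highest in the first, replicate 3 in the second and replicate 4 in the third. Averaged, the gene stood at 2.38, 2.32, 2.35 and 2.27, a mean of 2.33 ± 0.05, the smallest SD among the 9 genes, and 13.6% of detected genes had a smaller one.

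The other cargo receptors were detected for 9 of 10 genes with a probe. Nbr1, which shares the ubiquitin-binding and LC3-binding design of p62, was at -1.18 ± 0.06. Optn, the receptor optineurin, was at -1.62 ± 0.07. Their probes lay 1.92 apart for Nbr1 and 3.26 apart for Optn, so these means also join unlike readings. Fundc1, a receptor for mitochondria, was not well above background on any array.

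LC3B, from Map1lc3b, and GABARAPL1 are small ubiquitin-like proteins that are attached to lipid on the autophagosome membrane. Of the pair, LC3B is the usual measure of autophagy at the protein level. Map1lc3b had 4 detected probes, which lay up to 2.72 apart in level. The probe printed 10 times per array, A_44_P1137208, gave 2.53, 2.62, 2.56 and 2.50. The single-spot probes gave 3.36, 3.39, 3.38 and 3.21 for A_44_P1152843, 3.18, 3.20, 3.14 and 2.64 for A_44_P1086839, and 0.50, 0.65, 0.56 and 0.75 for A_44_P1370656. Replicate 4 was the lowest array in the first 3 of these probes and the highest in the last. The drop on replicate 4 of probe A_44_P1086839, a 1.47-fold range, came from 1 spot that carried no outlier flag. The mean over the 4 probes was 2.39, 2.46, 2.41 and 2.28, or 2.39 ± 0.08 for the gene.

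**Figure D2:**
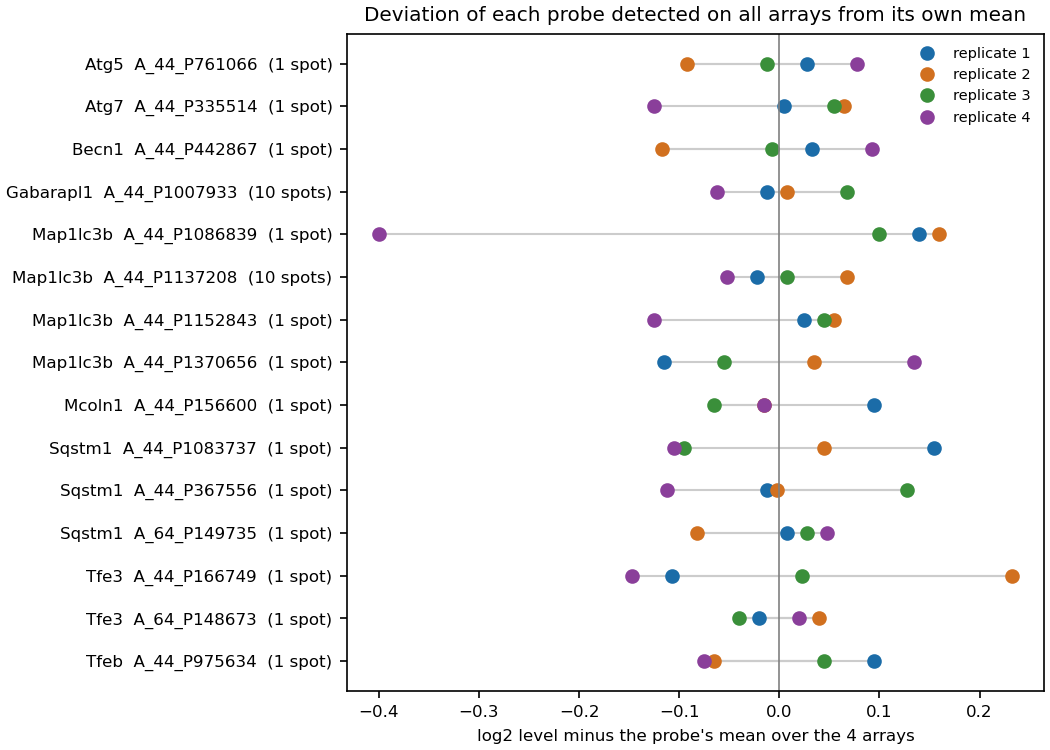
Deviation of each of the 15 probes detected on every array from its own mean, in log2 units, with 1 point per array and the number of spots per array in brackets. Replicate 4 of the Map1lc3b probe A_44_P1086839 is the point farthest from 0, and the same array is the high one for A_44_P1370656.

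Gabarapl1, which is also a target of FOXO factors, had 1 probe, printed 10 times, at 3.40, 3.42, 3.48 and 3.35, a mean of 3.41 ± 0.05. Replicate 3 was the highest and replicate 4 the lowest, in a 1.09-fold range. Of other family members, Map1lc3a was at 2.46 ± 0.03 and Gabarapl2 at 1.31 ± 0.06. Probes of such related genes can bind each other's transcripts, and this was not tested.

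Repeated printing allowed these probes to be tested for differences between arrays beyond the noise of their spots. Over 2319 probes printed several times, 44.3% differed between arrays by limma's moderated F test after Benjamini-Hochberg adjustment. The share was 67.3% of those printed 10 times, and 65.2% of those also detected on all arrays, so a call here is common. Gabarapl1 was called, with a largest difference of 0.12 ± 0.03 (SE) between replicates 3 and 4 (limma adjusted p = 0.0145). The probe of Map1lc3b printed 10 times had a largest difference of 0.12 ± 0.05 between replicates 2 and 4 and was not called (limma adjusted p = 0.208). Of 8 probes of other pathway genes printed several times, 2 were called, 1 of Bnip3, a receptor for mitochondria, and that of Ppp3r1, the regulatory subunit of calcineurin, with largest differences of 0.14 and 0.16. With 1 array per culture, cultures and arrays cannot be told apart.

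The spots of the Map1lc3b probe differed by position. Position 5 was the brightest and position 10 the dimmest spot on all 4 arrays, and the SD over spots was 0.10 to 0.13. At 10 of 10 positions replicate 2 was above replicate 4, and at 10 of 10 positions of Gabarapl1 replicate 3 was above replicate 4. Taking position as a block, a choice made after seeing the data, gave a largest difference of 0.12 ± 0.02 for both probes, and both were called (limma adjusted p = 8.25e-06 for Gabarapl1 and 2.57e-05 for Map1lc3b), as were 63% of the 2319 probes. The call of Gabarapl1 was lost without replicate 3 (limma adjusted p = 0.270), without replicate 4 (limma adjusted p = 0.178) and with normexp background correction (limma adjusted p = 0.386). It was kept without replicate 1 (limma adjusted p = 0.0179), without replicate 2 (limma adjusted p = 0.0167) and with outlier spots kept (limma adjusted p = 0.0167). The other scalings kept it too, by the percentile of all spots (limma adjusted p = 0.000774), the median (limma adjusted p = 0.00178) and quantiles (limma adjusted p = 0.00257). With the 75th percentile taken over all spots, Map1lc3b was called too (limma adjusted p = 0.0129). The largest difference of Gabarapl1 was 1.044-fold without replicate 3, 1.051-fold without replicate 4 and 1.11-fold with normexp correction. That of Map1lc3b was 1.13-fold with the percentile of all spots, where 51% of the 2319 probes were called.

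**Figure D3:**
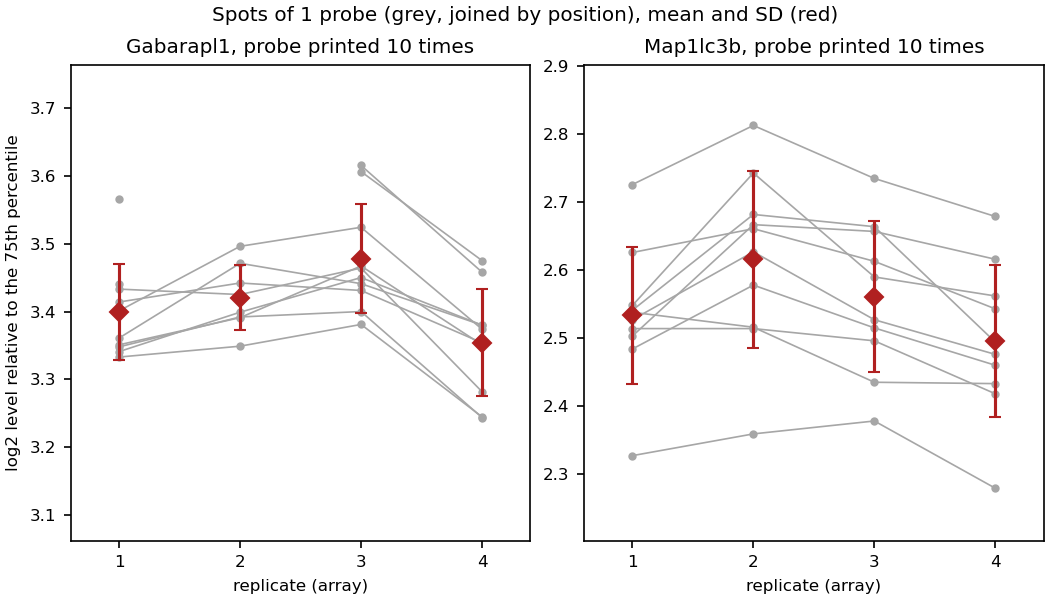
Levels of the 10 spots of the Gabarapl1 and Map1lc3b probes on each array in log2 units, with spots at 1 position joined in grey and the mean and SD in red. Spots flagged as outliers are not drawn, which leaves 8 for Gabarapl1 on replicate 2, and the top and bottom Map1lc3b lines are positions 5 and 10 on every array.

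Becn1 encodes beclin 1, the subunit that activates the lipid kinase VPS34 at the site where the membrane forms. Its levels were 0.17, 0.02, 0.13 and 0.23, a mean of 0.14 ± 0.09. Replicate 2 was the lowest and replicate 4 the highest, the widest range of the 9 genes at 1.16-fold. The kinase gene Pik3c3 varied little, at -0.75 ± 0.03. Atg14, the subunit that directs the complex to autophagy, was at -2.21 ± 0.07. Uvrag, the alternative subunit of endosomal traffic, was near the detection limit at -6.19 ± 0.21. Bcl2, whose protein binds and holds back beclin 1, was detected on 3 arrays and not on replicate 1.

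Upstream of this complex stands the ULK kinase complex, of which 4 of 5 genes were detected. Ulk1, the starting kinase, had levels of 0.60, 0.76, 0.77 and 0.59, a mean of 0.68 ± 0.10, with replicates 2 and 3 above replicates 1 and 4. Ulk2, its relative, had levels of -4.80, -5.75, -5.57 and -5.64, the largest SD of the pathway genes at 0.43, because replicate 1 stood above the others. Only 1 of the 2 Ulk2 probes was detected on all arrays. That probe was dim, as the lowest detected level was -6.81 on replicate 1 and -7.40 on replicate 2. Rb1cc1, which encodes the scaffold FIP200, was not well above background on any array by either of its probes. Among the membrane supply genes, Wipi1 was detected on no array and Atg9b on 1.

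ATG7 is the E1-like enzyme that starts both conjugation reactions, and ATG5 is joined to ATG12 to form the enzyme that attaches LC3 to lipid. Atg7 was measured by probe A_44_P335514 at -0.58, -0.52, -0.53 and -0.71, a mean of -0.58 ± 0.09, with replicate 4 the lowest. Its other probe, A_44_P1105100, which is assigned to a predicted transcript, was detected on replicate 1 alone at -6.00, and stood at -7.29, -7.46 and -7.93 on the others. With a looser detection flag this probe entered the mean and moved the gene to -3.88, so the Atg7 level rests on which probe is counted.

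Atg5 had levels of -4.09, -4.21, -4.13 and -4.04, a mean of -4.12 ± 0.07, from signals of 103 to 163. Its probe stood 2.72 to 3.36 above the lowest detected level of its array, and replicate 2 was the lowest array. Its partner Atg12 was at -5.89 ± 0.07. Atg16l1, which places the complex on the membrane, was at -0.68 ± 0.06. Of the E2-like enzymes, Atg3, which acts on LC3, was at -0.33 ± 0.14, and Atg10, which acts on ATG12, at -3.25 ± 0.14. All 8 conjugation genes with a probe besides the 9 were detected, and no probe was matched to the LC3 protease gene Atg4b.

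Of the last step, fusion with lysosomes, 8 of 8 genes with a probe were detected. Stx17, the syntaxin of the autophagosome, was at -4.70 ± 0.20. In all, 71 of the 77 other pathway genes with a probe were detected on every array, against 52.4% of named genes, and 9 listed genes had no matched probe.

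**Figure D4:**
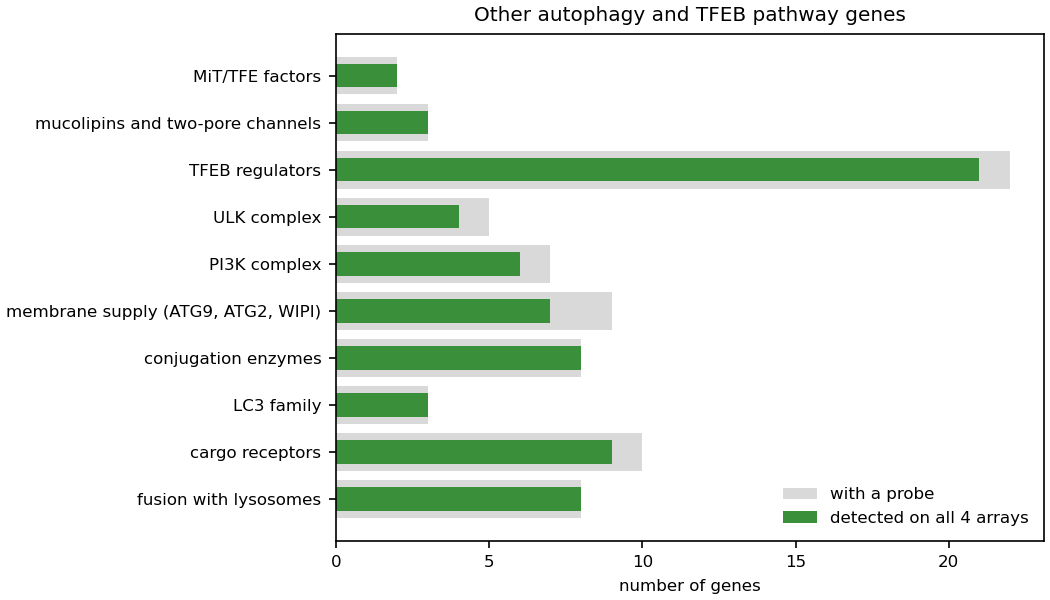
Number of other autophagy and TFEB pathway genes with a probe (grey) and detected on all 4 arrays (green), by role. Every gene with a probe was detected in 5 of the 10 roles, and membrane supply had 2 genes missing.

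The SDs of the 9 genes over the 4 cultures lay between 0.045 and 0.097. Their median was 0.079, which is 1.06-fold, against 0.093 over 8685 detected genes and 0.076 over the 71 detected pathway genes. Of the 9 genes, 8 had an SD under the median of all detected genes, and Tfe3 was the exception. Averaging probes can lower a gene's SD, and the 9 genes join 15 probes where the 8685 detected genes join 10813. With the brightest probe per gene, the median SD of the 9 genes was 0.083. The SD was then 0.12 for Sqstm1, 0.083 for Map1lc3b and 0.039 for Tfe3. As means over probes, none of the 9 genes spanned over 1.25-fold between arrays, which 26% of detected genes did. Of the 71 pathway genes, 10 did. By probe, A_44_P1086839 of Map1lc3b spanned 1.47-fold and A_44_P166749 of Tfe3 1.305-fold, and the other probes detected on every array stayed under 1.25-fold. Over 1.5-fold there were 2 pathway genes, Ulk2 and Mtor, where 7.53% of detected genes passed. The median SD of the 9 genes ranged from 0.059 without replicate 4 to 0.092 without replicate 3.

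**Figure D5:**
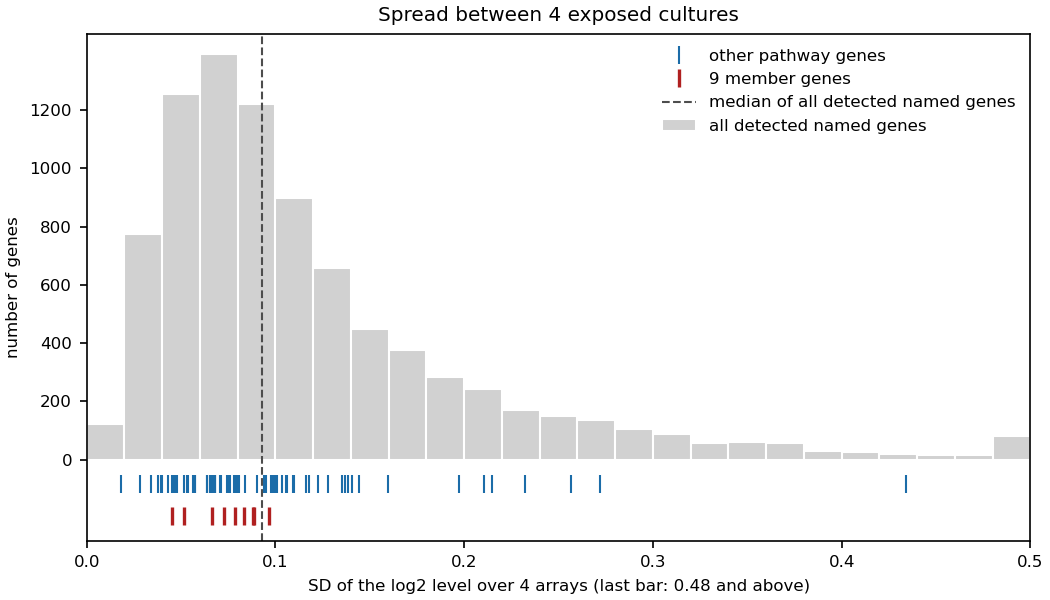
Number of detected genes by the SD of their log2 level over the 4 arrays, with the 71 pathway genes (blue) and the 9 genes (red) as marks below and the median of all genes dashed. The red marks run from 0.045 to 0.097, and Ulk2 is the pathway gene farthest to the right at 0.43.

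Replicate 4 was the array on which most of the 9 genes were low. There, 7 were below their own mean and 2, Becn1 and Atg5, above it. The median deviation was -0.06, whereas the median over all detected genes was 0.01. The 71 other detected pathway genes did not share this, with a median deviation of 0.025 on replicate 4 and -0.032 on replicate 1. Of the 7 genes below their mean on replicate 4, Mcoln1 deviated by only -0.015. On replicate 1, 7 were above their mean and 2 below. The count on replicate 4 was 6 or 7 below under each background and scaling choice tried. Over these choices the median deviation of all detected genes there ran from -0.011 with median centring to 0.041 with normexp correction. The share of all detected genes below their own mean was not counted. With the percentile taken over all spots, the count on replicate 1 was 2 above and 7 below, and all genes moved with it: the median deviation there was -0.024 for the 9 genes and -0.058 for all detected genes, against 0.027 and -0.007 before. No test was made of these counts, since the genes share arrays.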

How the data were processed

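Total RNA of 4 cultures was labelled with Cy3 and read on 1-colour Agilent arrays on 1 slide. Per the submitters' processing notes, Agilent Feature Extraction 11.0.1.1 made the deposited intensities. Per the file headers, the processed intensity had its local background subtracted and was detrended, with no scaling between arrays. The deposited flags, another kind of column, mark each spot as well above background, saturated or an outlier.

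Control and outlier spots were dropped. Log2 processed intensities were averaged by probe, and the 75th percentile of the 17807 probes well above background on every array was subtracted, since under 50% of 45598 probes passed on any array. A probe passed where most of its usable spots did. Gene levels are means over probes that passed on all arrays. Accessions without version gave symbols to 21109 probes through a RefSeq gene table of GRCr8. The array was designed on another build, so no probe coordinates are given.

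The moderated F test over replicate spots used limma 3.58.1 (R 4.3.3; adjusted p threshold 0.05). On 2319 simulated probes, it found 12%, 64%, 80% and 96% of log2 differences of 0.1, 0.25, 0.5 and 1, and made 6 calls among 2119 unchanged probes. The simulated spots were independent, with no effect of position. Their noise was estimated without a correction for few spots, which is too low for probes printed 2 times, so the shares found may be too high. Normexp correction (offset 50), an alternative, started from the deposited median intensity, as a mean was not given. Other alternatives changed scaling, outlier spots, detection, the probe rule and the arrays used. The 9 genes, lists and rules were chosen with earlier results of these data known. Named pathway genes were 26 relatives and partners chosen by name, those with a probe not detected on all arrays and the 3 largest SDs. Lamtor3, Bnip3 and Ppp3r1 were named after their values were seen. The level of 1 listed relative is not reported here.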

Additional observations from a re-analysis of the deposited data

Results flagged for a closer look

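Single arrays were compared with the other 3 by the ratio of the gap to the whole range, against Dixon's 95% critical value for 4 samples. Of 42 series tested, 33 genes and 9 probes, 5 passed, where chance, at about 1 in 20 series, gives about 2.1, and the 2 Map1lc3b probes among them come from the same transcript. Probe A_44_P1086839 of Map1lc3b had a ratio of 0.885, with replicate 4 at 2.64 against 3.14 to 3.20, and 0.815, below the critical value, when the scaling percentile was taken over all spots. Probe A_44_P1152843 of Map1lc3b had a ratio of 0.858, with replicate 4 at 3.21 against 3.36 to 3.39, and fell below the critical value with that scaling (0.438), with normexp correction (0.789) and with median centring (0.7999). Mcoln3 had a ratio of 0.884, with replicate 3 low at -5.76 against -5.49 to -5.45. Atg12 had a ratio of 0.979, with replicate 4 at -5.77 against -5.93 to -5.92. Ppp3cb had a ratio of 0.840, with replicate 4 at -3.65 against -4.19 to -4.11. Under the reported setting no gene among the 9 passed by its own level, and with normexp correction Mcoln1 did, with a ratio of 0.860 and replicate 1 high.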

How the results depend on the processing

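All 9 genes were detected under each of the detection and outlier alternatives and without each array, and the other pathway genes numbered 71 to 75. The looser flag, the rule of at least 3 arrays and leaving out an array only relax the reported rule. A gene that passed it had to pass these too, and no stricter rule was tried. The number of probes of the 9 genes that differed between arrays was 1 in the reported test, 0 with normexp background correction, 2 with the 75th percentile of all spots, 2 with spot position as a block, and 0 to 1 when 1 array was left out. Over all probes printed several times it was 1027, and 655 with quantile normalization, 1182 with the 75th percentile of all spots, 1460 with the block, and 767 to 944 without 1 array. Testing only probes detected on all arrays, and the block, were chosen after seeing the data, and the former gave 742 and left Gabarapl1 called. The median SD of the 9 genes was 0.0589 to 0.0922 without 1 array and 0.0683 to 0.0833 under the other choices. Another centring shifts each level by a constant, so levels are comparable only within 1 scaling. With the brightest probe, Tfe3 moved to 1.77, Sqstm1 to 3.90 and Map1lc3b to 3.34. The causes of these changes were not tested. No paired analysis was possible because the samples form 1 group. Signal over background limits the dim probes, among them the dimmer one of Tfe3.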
